A study of Mus musculus with 15 samples.

Results

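The 6 genes described here make, load, take up and break down the inhibitory transmitter GABA: *Gad1*, *Gad2*, *Slc32a1*, *Slc6a11*, *Abat* and *Aldh5a1*. They were chosen by symbol, as the rows of the count files whose Ensembl mouse gene ID carries one of these names, and they are 6 of the 38561 genes in the files. The samples are mouse Purkinje cells (PCs), the neurons through which the cerebellar cortex sends its output, cut out of brain sections by laser capture microdissection, in which chosen cells are excised under a microscope. RNA was sequenced from 15 samples at postnatal day 0 (P0), P4, P8, P14 and P21, with 3 samples per age. No treatment or mutation was involved, and the groups differ by age. The sample labels give the strain as C56/BL6, whereas the methods of the study name male C57/BL6 mice. By the study's methods, 1000 PC cell bodies were collected per sample from P4 to P21, but at P0 clusters of PCs were cut out instead, so that age and the way of capture cannot be told apart in any comparison with P0.

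GABA is made from glutamate by glutamate decarboxylase, of which there are 2 forms: GAD67, encoded by *Gad1*, is found throughout the neuron, and GAD65, encoded by *Gad2*, is concentrated at nerve terminals. The vesicular transporter VGAT, encoded by *Slc32a1*, loads GABA into synaptic vesicles. After release, GABA is cleared by plasma membrane transporters, of which GAT-3, encoded by *Slc6a11*, is known mainly from astrocytes. GABA transaminase (*Abat*) and succinic semialdehyde dehydrogenase (*Aldh5a1*) act one after the other in mitochondria and pass the carbon of GABA into the citric acid cycle. PCs are GABAergic and inhibit the neurons of the cerebellar nuclei, and basket, stellate and Golgi cells of the same cortex also use GABA.

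Total counts on genes ranged from 3409371 to 7814951 per library, where 3 counts correspond to 0.388 to 1.001 CPM (a gene's counts relative to all counts of its library, on edgeR's TMM library sizes). These floors cover counting error only. The methods call the 3 samples of an age biological replicates, and their counts differed by more than sampling noise at every age. The summed level of 6 PC markers, among them *Calb1* and *Itpr1*, went from 5340 CPM at P0 through 13192, 19202 and 34018 CPM to 42941 CPM at P21, and all 6 rose with age. Markers of other cells were present too: the sum of 9 glial markers lay between 2951 and 9774 CPM over all 15 libraries, that of 10 markers of GABAergic interneurons between 130 and 340 CPM, that of 6 granule neuron markers between 254 and 1260 CPM, that of 3 vascular markers between 16.0 and 121 CPM and that of 4 microglial markers between 0 and 25.5 CPM. The sum of 5 oligodendrocyte markers went from 22.4 ± 11.8 CPM (SD, n = 3) at P0 to 569 ± 241 CPM at P21, all 5 rising with age as 5 of the 6 GABA genes did, and its part in their rise was not tested.

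Levels of 5 of the 6 genes increased with age, and that of *Slc6a11* decreased. All 6 passed the filter on low counts and all 6 were called in the trend with age at an adjusted p below 0.05 (edgeR's quasi-likelihood test, Benjamini-Hochberg adjustment over 14293 genes), where 26.2% of all genes tested were called, 12.1% rising and 14.1% falling. When libraries were scaled by their totals alone, the split of all genes moved from 1729 rising and 2021 falling to 1230 rising and 2874 falling, the median change of all genes from P0 to P21 moved from -0.11 to -0.46 on the log2 scale, and each of the 6 genes kept its direction. The median slope of the 6 genes was 0.10 log2 units per day, beside -0.0077 over all genes tested. When age was treated as 5 separate groups, 5 of the 6 differed between ages, beside 19.3% of all genes, and *Slc6a11* had an adjusted p of 0.0732 (0.00364 by DESeq2, 0.0490 without the filter). For every gene but *Slc6a11*, each of the 6 libraries from P14 and P21 lay above each of the 6 from P0 and P4, which held for 8.24% of all genes.

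**Figure D1:**
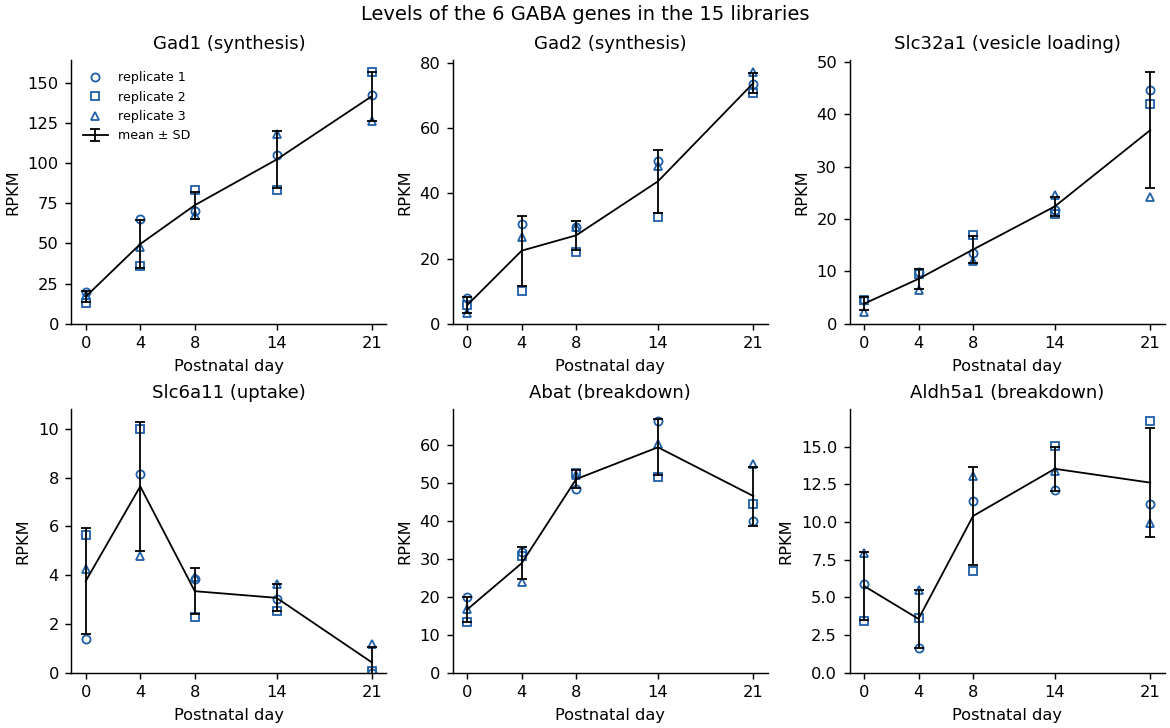
RPKM, here TMM-scaled CPM per kilobase of summed exon length, of each of the 6 genes against postnatal day; symbols are the 3 libraries of an age and the black line joins the means with their SD (n = 3), on linear axes that start at 0 and differ between panels. *Gad1*, *Gad2* and *Slc32a1* were highest at P21, *Abat* and *Aldh5a1* had their highest mean at P14, and *Slc6a11* had its highest mean at P4 and its lowest at P21.

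Both decarboxylases rose with age, with their largest estimated step between P0 and P4 and their highest mean at P21. *Gad1* (ENSMUSG00000070880) lies on chromosome 2 at 70553072 to 70602014 of GRCm38, on the plus strand, and its exons sum to 7639 bases. Its levels were 152, 97.8 and 136 CPM in the 3 P0 libraries, 499, 274 and 363 CPM at P4 and 535, 637 and 518 CPM at P8. They were 805, 635 and 903 CPM at P14 and 1087, 1197 and 965 CPM at P21. Every P4 library was above every P0 library, every P8 library above every P4 library and every P21 library above every P14 library, and only the P8 and P14 libraries overlapped among neighbouring ages. The mean went from 128 ± 27.8 CPM (SD, n = 3) to 1083 ± 116 CPM, a log2 change from P0 to P21 of 3.08 (SE 0.24, edgeR adjusted p = 1.29e-07) or 8.43-fold. The slope was 0.13 log2 units per day (SE 0.017, edgeR adjusted p = 2.10e-05), and it was 0.088 (adjusted p = 9.86e-05) over P4 to P21 alone.

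*Gad2* (ENSMUSG00000026787) is also on chromosome 2, at 22622205 to 22693874 on the plus strand, with 5876 exon bases. It stood at 47.1, 33.9 and 18.6 CPM at P0, at 180, 59.6 and 156 CPM at P4 and at 175, 129 and 175 CPM at P8. At P14 it measured 295, 192 and 285 CPM and at P21 433, 417 and 454 CPM. The 3 P21 libraries were close to each other and above all others, whereas P4 replicate 2 held the lowest value of both *Gad* genes after P0. *Gad2* rose by 3.71 on the log2 scale from P0 to P21 (SE 0.40, 13.1-fold, edgeR adjusted p = 3.96e-06), with a slope of 0.15 log2 units per day (SE 0.022, adjusted p = 4.93e-05). Over P4 to P21 alone its slope was 0.11 (adjusted p = 0.000230).

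The vesicular transporter rose as well. *Slc32a1* (ENSMUSG00000037771), the third of the genes on chromosome 2, spans 158610767 to 158615748 on the plus strand and has 2797 exon bases. It measured 12.9, 12.5 and 6.49 CPM at P0, 27.5, 26.5 and 17.8 CPM at P4, and 37.7, 47.5 and 33.6 CPM at P8. The values were 60.7, 58.8 and 68.5 CPM at P14 and 125, 117 and 67.9 CPM at P21. Neighbouring ages did not overlap up to P14, and at P21 replicate 3 remained within the P14 values while replicates 1 and 2 were well above them. Yet none of the single steps of *Slc32a1* passed the test, while the rise from P0 to P21 did, with a log2 change of 3.28 (SE 0.38, 9.71-fold, edgeR adjusted p = 1.00e-05). Its slope of 0.15 log2 units per day (SE 0.017) had the lowest adjusted p of the 6 genes, 3.39e-06 by edgeR. An antisense gene, *Gm14205*, shares 697 exon bases with it and had 0 counts in all 15 libraries. Where strand is not known, reads in shared bases cannot be assigned to either gene. These 0 counts therefore do not show whether the level of *Slc32a1* per length was affected.

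Because *Gad1*, *Gad2* and *Slc32a1* rose together, the bases before their RefSeq start sites (GRCm38.p6, plus strand) are shown as far as no annotated exon of the gene covers them, at chr2:70561879-70562041, chr2:22622077-22622204 and chr2:158610508-158610757. The stretch shown for *Gad1* lies inside the annotated span of the gene, which begins at 70553072, and not in front of it. Capitals mark the E-box CANNTG, the letters bound by basic helix-loop-helix factors, a pattern that matches on both strands alike.
Gad1: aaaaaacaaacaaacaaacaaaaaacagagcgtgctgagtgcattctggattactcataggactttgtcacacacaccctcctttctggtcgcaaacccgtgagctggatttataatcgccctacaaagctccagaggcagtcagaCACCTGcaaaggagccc
Gad2: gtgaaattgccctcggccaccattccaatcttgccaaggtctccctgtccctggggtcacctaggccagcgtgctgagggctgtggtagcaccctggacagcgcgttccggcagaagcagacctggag
Slc32a1: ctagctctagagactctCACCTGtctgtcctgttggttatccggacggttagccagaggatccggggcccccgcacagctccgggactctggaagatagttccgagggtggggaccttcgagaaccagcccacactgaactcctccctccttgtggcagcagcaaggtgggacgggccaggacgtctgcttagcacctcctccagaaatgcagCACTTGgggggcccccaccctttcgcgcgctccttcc
In the full 250 bases before each start the E-box was found once for *Gad1*, once for *Gad2*, in the bases not shown, and 2 times for *Slc32a1*, and it was found in 66.2% of 32851 mouse promoters of that length. The letters CACCTG, looked for on both strands after the matches had been seen, occurred in the windows of *Gad1* and *Slc32a1* and in 17.2% of all promoters, and not in that of *Gad2*. RefSeq promoters were matched for 5 of the 6 genes, *Abat* being the one without an entry. The window of *Slc6a11*, which fell, and that of *Aldh5a1* each held 1 E-box too, with the letters CACCTG.

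Markers of the PCs themselves moved with these 3 genes, and their part in the rise was not tested by a model. In bulk samples, more or fewer cells of a type and more or less RNA per cell cannot be told apart, and this holds for each gene described here. Measured against the 6 PC markers within a library, the sum of *Gad1* and *Gad2* per kilobase came to 0.843% ± 0.273 (SD, n = 3) of the marker sum at P0, and to 1.38% ± 0.711, 1.22% ± 0.0631, 1.04% ± 0.164 and 1.19% ± 0.182 at the 4 later ages in order. This share showed no correlation with age that passed the test (Pearson's r = 0.227, permutation p = 0.420, adjusted p = 0.524 over 5 ratios; Spearman's rho = 0.131, permutation p = 0.652, adjusted p = 0.652; 15 libraries), and r was between 0.163 and 0.280 without 2 of the 3 P21 libraries, which tie as the farthest from the median age. Per kilobase *Pcp4* and *Pcp2* were the highest of the 6 markers. They had 1580 and 556 RPKM at P0 and 7575 and 5581 RPKM at P21. From P0 to P21 edgeR's log2 change was 2.26 for *Pcp4*, 2.62 for *Calb1* and 2.86 for *Car8*. It was 3.33 for *Pcp2*, 5.17 for *Itpr1* and 10.6 for *Ppp1r17*, beside 3.08 for *Gad1* and 3.71 for *Gad2*. The share is thus set against a sum that rests mostly on *Pcp4* and *Pcp2*, and shares of single markers were not tested. The interneuron marker sum was 165 ± 31.2, 310 ± 26.1, 204 ± 31.1, 201 ± 35.7 and 148 ± 24.2 CPM (SD, n = 3) at the 5 ages in order, with each P4 library above each P0 library, and of its 9 markers that passed the filter none rose with age and 1 fell.

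Between neighbouring ages, edgeR's test called members in the first step only, and the tool and the threshold decided some of this. From P0 to P4, *Gad1* rose by 1.56 on the log2 scale (SE 0.23, edgeR adjusted p = 0.00187), *Gad2* by 1.98 (SE 0.37, edgeR adjusted p = 0.00992) and *Abat* by 0.79 (SE 0.19, edgeR adjusted p = 0.0452). These were 3 of the 6 genes, beside 1.97% of all genes tested, 1.74% rising. In the same step the PC marker sum went from 5340 to 13192 CPM, the interneuron marker sum from 165 to 310 CPM and the glial marker sum from 4758 to 7352 CPM, and their part in these changes was not tested. From P4 to P8, from P8 to P14 and from P14 to P21 none of the 6 passed edgeR's test, beside 1.13%, 2.67% and 0.329% of all genes. The step of *Abat* from P4 to P8, 0.82 (SE 0.19, edgeR adjusted p = 0.0508), was as large as its step before, and it was called by DESeq2 (adjusted p = 0.00243), when libraries were scaled by their totals alone (0.0478) and in 3 of the 15 fits with a library left out. DESeq2 also called that of *Aldh5a1* from P4 to P8 (adjusted p = 0.0241), and without P21 replicate 3 edgeR called that of *Slc6a11* from P14 to P21 (-5.85, adjusted p = 0.0210). The call for *Abat* from P0 to P4 was lost under size factors by RLE (adjusted p = 0.0658), without the filter (0.0714), when libraries were scaled by their totals alone (0.0820) and without 12 of the 15 libraries in turn (up to 0.168). For *Gad1* and *Gad2* this step was called without each library in turn, with an adjusted p of at most 0.00908 and 0.0478.

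**Figure D2:**
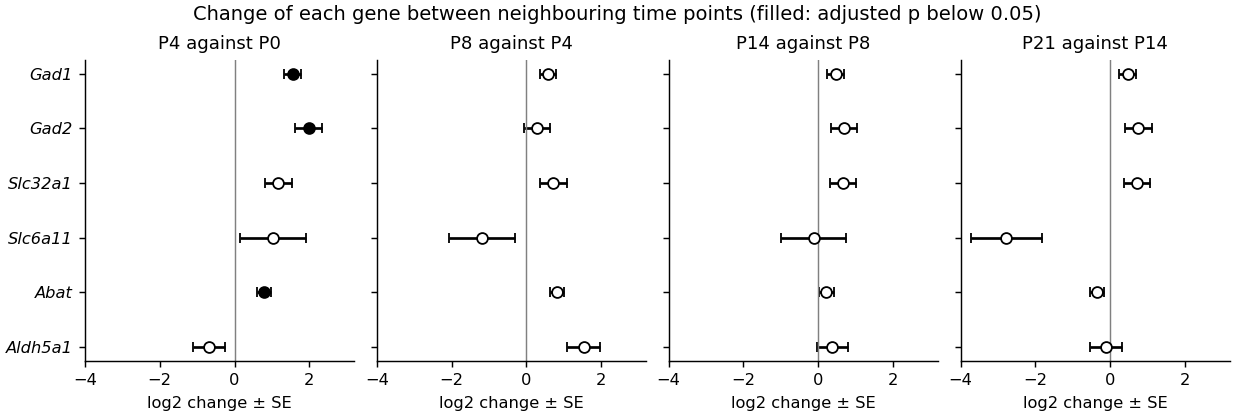
log2 change ± SE of each of the 6 genes in the 4 steps between neighbouring ages, from edgeR's fit over 15 libraries; filled points have an adjusted p below 0.05 and the grey line marks no change. Only *Gad1*, *Gad2* and *Abat* from P0 to P4 are filled. The bars rest on a spread estimated over all 15 libraries, not on that of the ages compared, and are widest for *Slc6a11*.

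The transporter *Slc6a11* (ENSMUSG00000030307; chromosome 6, 114131241 to 114249952, plus strand, 5050 exon bases) went the other way. It measured 6.92, 28.6 and 21.5 CPM at P0, 41.2, 50.5 and 24.2 CPM at P4, and 19.3, 11.5 and 19.9 CPM at P8. It was at 15.3, 12.8 and 18.4 CPM at P14, and at P21 the 3 libraries held 0, 0.424 and 5.92 CPM, from 0, 2 and 37 counts. All P21 libraries lay below all others, the P4 libraries lay above all of P8 and P14, and the P0 libraries overlapped with those of P4, P8 and P14. No count in P21 replicate 1 allows a level of up to 1.001 CPM. The decline from P0 to P21 was -3.07 on the log2 scale (SE 0.97, edgeR adjusted p = 0.0308), or 0.119 of the P0 level, and its slope was -0.15 log2 units per day (SE 0.052, adjusted p = 0.0409).

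Whether this fall was called depended on single libraries of several ages. Without P21 replicate 3 the change from P0 to P21 was -6.14 on the log2 scale (edgeR adjusted p = 0.000672), and without replicate 1 or 2 it was -2.54 and -2.59 (adjusted p = 0.0705 and 0.107). It also missed the threshold without P0 replicate 2 (-2.67, adjusted p = 0.0778) or P0 replicate 3 (-3.01, adjusted p = 0.0517). The slope had an adjusted p below 0.05 in 7 of the 15 fits with a library left out. It missed the threshold without P0 replicate 2, P14 replicate 2, any of the P4 libraries or any of the P21 libraries. Over P4 to P21 alone it was -0.21 log2 units per day (edgeR adjusted p = 0.0121).

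Glial markers moved over the same ages, and their part in the fall of *Slc6a11* was not tested beyond a ratio. Their sum was 4758 ± 866, 7352 ± 1940, 9130 ± 925, 6433 ± 209 and 3738 ± 836 CPM (SD, n = 3) at the 5 ages in order, and each of the 9 markers had counts at every age. The glutamate transporter *Slc1a3*, which is strongly expressed by Bergmann glia, rose with a slope of 0.046 (SE 0.013, edgeR adjusted p = 0.0144) and had 1336, 1292 and 1689 CPM at P0 and 2433, 2019 and 3081 CPM at P21. *Fabp7*, a fatty acid binding protein of radial and immature glia, fell with a slope of -0.22 (SE 0.041, adjusted p = 0.000542), from 2687 ± 593 CPM to 186 ± 64.2 CPM. The astrocyte marker *Aldh1l1* also fell, from 153 ± 17.3 CPM at P0 to 42.2 ± 29.5 CPM at P21 (slope -0.078, SE 0.023, edgeR adjusted p = 0.0178). Of the 9 markers 5 were called in the trend, 3 rising (*Slc1a3*, *Hopx* and *Gja1*) and 2 falling (*Fabp7* and *Aldh1l1*), so that the glial genes did not move as one. For a ratio within a library the glial markers were summed per kilobase, which differs from the CPM sum above. Per kilobase *Fabp7* had 2150 RPKM at P0 and 149 RPKM at P21, beside 169 and 294 RPKM for *Slc1a3*. The early sum thus rests mostly on a gene that fell, and the part of *Fabp7* in the ratio was not tested. Per kilobase, *Slc6a11* was 0.166%, 0.188%, 0.0747%, 0.182% and 0.0524% of the glial marker sum at the 5 ages in order, with no correlation with age that passed the test over the 14 libraries with a count (r = -0.339, permutation p = 0.240, adjusted p = 0.400; rho = -0.251, permutation p = 0.382, adjusted p = 0.636), and r was 0.0562 without P21 replicate 2. The library left out, P21 replicate 1, had no count of *Slc6a11*, and with 0.5 added to each count all 15 libraries gave r = -0.506 (permutation test, adjusted p = 0.118).

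**Figure D3:**
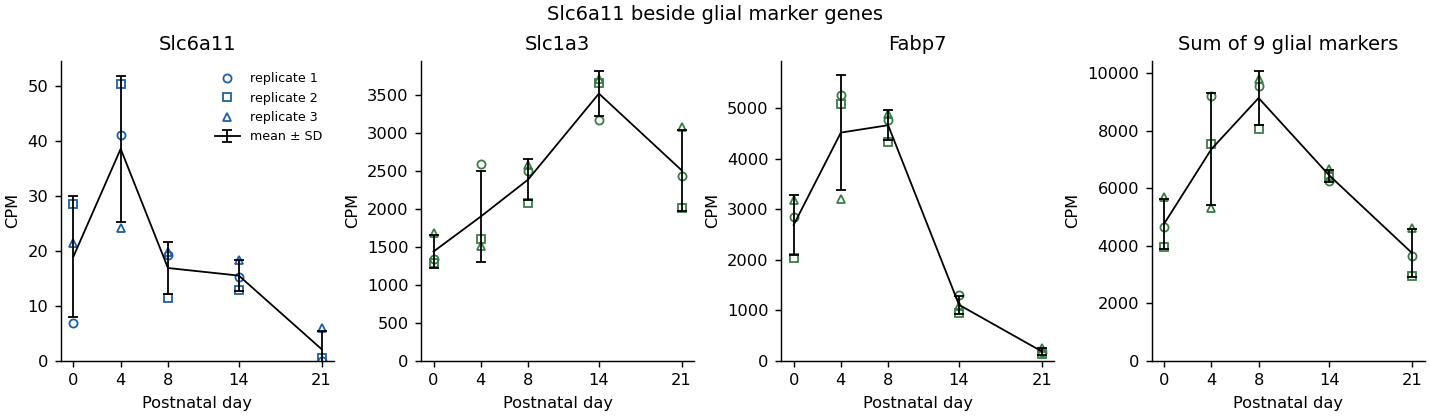
CPM of *Slc6a11*, of the glial genes *Slc1a3* and *Fabp7* and of the sum of 9 glial markers against postnatal day; symbols are the 3 libraries of an age and the black line joins means with their SD (n = 3), on linear axes from 0. *Slc1a3* was higher at P21 than at P0, whereas *Slc6a11* and *Fabp7* were lowest at P21.

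Both breakdown enzymes rose with age too, by smaller estimated amounts, and had their highest mean at P14. *Abat* (ENSMUSG00000057880; chromosome 16, 8513429 to 8621568, plus strand, 7748 exon bases) measured 154, 103 and 129 CPM at P0, 246, 237 and 186 CPM at P4, and 374, 406 and 403 CPM at P8. It reached 513, 399 and 466 CPM at P14 and stood at 309, 344 and 426 CPM at P21. Neighbouring ages did not overlap up to P8, and from there on they did. *Abat* rose from P0 to P21 by 1.48 on the log2 scale (SE 0.20, 2.80-fold, edgeR adjusted p = 3.53e-05), the step from P14 to P21 being -0.35 (SE 0.19, adjusted p = 0.775). Its slope was 0.070 log2 units per day (SE 0.018, edgeR adjusted p = 0.00605), and over P4 to P21 alone it was 0.034 (adjusted p = 0.185), no longer called.

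*Aldh5a1* (ENSMUSG00000035936) is on the minus strand of chromosome 13 at 24907579 to 24937661, with 5647 exon bases. It measured 33.1, 19.4 and 45.0 CPM at P0, 9.32, 20.3 and 30.8 CPM at P4, and 64.3, 38.1 and 73.6 CPM at P8. At P14 there were 68.5, 85.0 and 75.6 CPM and at P21 63.1, 94.5 and 56.0 CPM. Its P0 and P4 libraries overlapped, those of P8 lay above all of P4, and those of P8, P14 and P21 overlapped, so that P4 and P8 were the only neighbouring ages apart. That step was 1.54 on the log2 scale (SE 0.44, edgeR adjusted p = 0.123). The slope of 0.075 log2 units per day (SE 0.023) had an edgeR adjusted p of 0.0199, which rose to 0.0547 without P21 replicate 2, to 0.0552 without P0 and to 0.0728 when libraries were scaled by their totals alone. From P0 to P21 the change was 1.13 (SE 0.43, 2.19-fold, adjusted p = 0.0713). Exons of *9330162012Rik* and of the antisense *4932702P03Rik* cover 203 and 796 of its bases, and they had 211 and 15 counts over all 15 libraries. Reads of an antisense partner cannot be told apart where strand is not known, so these counts do not show whether *Aldh5a1* was affected.

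From P0 to P21, then, 5 of the 6 genes passed the test, 4 rising and 1 falling, beside 22.8% of all genes tested (12.2% rising, 10.6% falling). Per length, the order of the genes changed between those ages. At P0 *Gad1* with 16.8 RPKM and *Abat* with 16.6 RPKM led, and their libraries overlapped. Below them lay *Aldh5a1* with 5.76, *Gad2* with 5.66, *Slc32a1* with 3.80 and *Slc6a11* with 3.76 RPKM, each overlapping with the next. At P21 *Gad1* stood at 142 RPKM and *Gad2* at 73.9 RPKM, followed by *Abat* at 46.5, *Slc32a1* at 37.0, *Aldh5a1* at 12.6 and *Slc6a11* at 0.419 RPKM. Of these neighbours at P21 only *Abat* and *Slc32a1* overlapped, but with the length of the longest coding transcript in place of all exons *Abat* had 77.6 and *Gad2* 75.6 RPKM, so the order of these 2 rests on the length chosen.

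Within a library the RNA level of *Abat* fell relative to that of *Gad1* plus *Gad2*, a ratio that leaves out *Aldh5a1*. *Abat* per kilobase was 71.2%, 71.8% and 79.5% of *Gad1* plus *Gad2* in the P0 libraries, 33.1%, 66.4% and 32.4% at P4 and 48.4%, 49.8% and 53.3% at P8. It was 42.6%, 44.5% and 36.1% at P14 and 18.5%, 19.5% and 27.0% at P21. All P0 libraries were above all others and all P21 libraries below all others, and P4 replicate 2 lay apart from the other two of its age. The log2 ratio fell with postnatal day (Pearson's r = -0.828, permutation p = 2.0e-04, adjusted p = 0.00100 over 5 ratios; Spearman's rho = -0.786, permutation p = 0.00105, adjusted p = 0.00525; 15 libraries), by 0.071 log2 units per day. Without 2 of the 3 P21 libraries r was between -0.755 and -0.705, with each library left out it was between -0.887 and -0.786, and over P4 to P21 alone it was -0.712 (adjusted p = 0.0510). The PC marker sum went from 5340 CPM at P0 to 42941 CPM at P21. That of the glial markers went from 4758 CPM at P0 through 9130 CPM at P8 to 3738 CPM at P21. The part of these cell types in the ratio was not tested.

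The ratios among the genes of synthesis and loading showed no correlation with age that passed the test. *Gad1* exceeded *Gad2* per kilobase in 15 of 15 libraries, between 1.63 and 5.59 times, with means of 3.43 ± 1.88, 2.49 ± 0.926, 2.82 ± 0.864, 2.36 ± 0.231 and 1.93 ± 0.288 (SD, n = 3) from P0 to P21. Its decline with age missed the threshold (r = -0.475, permutation p = 0.0706, adjusted p = 0.176; rho = -0.436, permutation p = 0.107, adjusted p = 0.269), and r was between -0.436 and -0.303 without 2 of the 3 P21 libraries. All P0 libraries were above all P21 libraries in this ratio, though narrowly, the lowest at P0 being 2.218 and the highest at P21 2.211. With transcript lengths the ratio was 3.64 to 12.4, so its size depends on the length used while its being above 1 did not. *Slc32a1* was 17.2% ± 6.51, 13.1% ± 6.49, 13.98% ± 1.95, 15.6% ± 2.24 and 17.0% ± 4.57 (SD, n = 3) of *Gad1* plus *Gad2* from P0 to P21 (r = 0.164, permutation p = 0.558, adjusted p = 0.558; rho = 0.153, permutation p = 0.597, adjusted p = 0.652), and r was -0.102 when P21 replicate 3 alone was kept of its age and 0.217 or 0.155 when replicate 1 or 2 was.

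**Figure D4:**
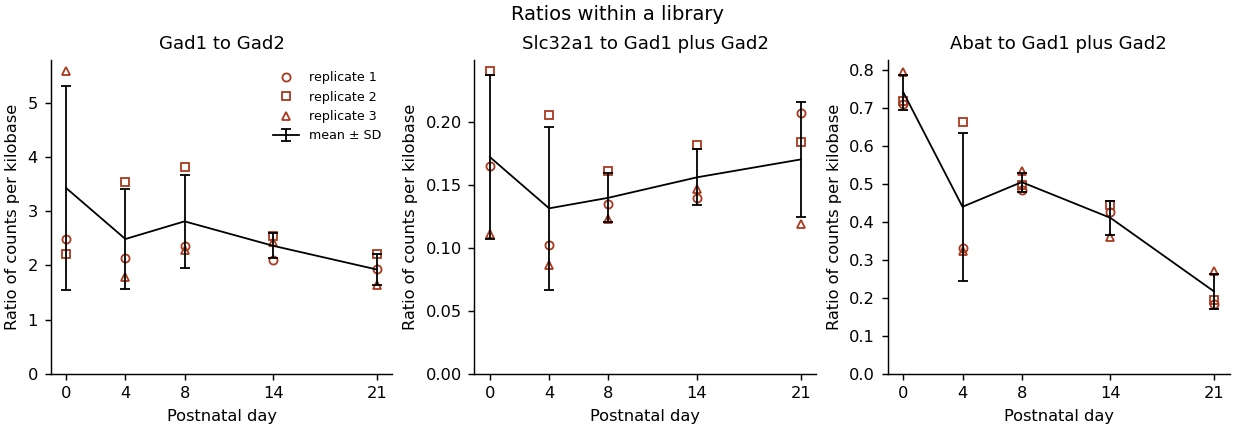
Ratios of counts per kilobase of exon within each library against postnatal day, for *Gad1* to *Gad2*, *Slc32a1* to *Gad1* plus *Gad2*, and *Abat* to *Gad1* plus *Gad2*; symbols are the 3 libraries of an age and the black line joins means with their SD (n = 3), on linear axes from 0. *Abat* fell from a mean of 74.2% of the *Gad* sum at P0 to 21.7% at P21. For *Gad1* to *Gad2* the P0 libraries lay narrowly above those of P21, and for *Slc32a1* to the *Gad* sum they overlapped.

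A list of 32 further genes around GABA and glutamate was described for context, covering glutamate supply, other routes to GABA, cofactor supply, chaperones of vesicle loading, related transporters and the citric acid cycle. Of these 31 passed the filter (*Slc6a12* did not), 13 rose with age and 3 fell, beside 12.1% and 14.1% of all genes tested, and the median slope of the 31 was 0.046 log2 units per day, beside -0.0077 over all genes. Among the rising genes of glutamate metabolism, the aspartate transaminase *Got1* went from 112 ± 2.95 CPM at P0 to 620 ± 41.1 CPM at P21 (slope 0.12, SE 0.011, edgeR adjusted p = 1.27e-07), and it was called in the steps from P4 to P8 and from P8 to P14. Its mitochondrial counterpart *Got2* went from 101 ± 16.2 to 328 ± 25.6 CPM (slope 0.068, adjusted p = 0.000705). Glutamine synthetase (*Glul*, slope 0.049, adjusted p = 0.0134) and the glutamine transporter *Slc38a1* (0.051, adjusted p = 0.000386) rose, and the glutamine transporter *Slc38a2* fell (-0.048, adjusted p = 0.0116).

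Some other genes of the list rose steeply between neighbouring ages or appeared from no counts. *Slc1a6*, which encodes the glutamate transporter EAAT4 typical of PCs, measured 102, 225 and 58.3 CPM at P4 and 706, 1040 and 898 CPM at P8, without overlap, a 6.85-fold step (edgeR adjusted p = 0.000817). Its mean was 1708 ± 454 CPM at P14, with each P14 library above each P8 library, and 941 ± 124 CPM at P21. These later steps were not called (edgeR adjusted p = 0.202 and 0.610). *Aldh1a1*, an aldehyde dehydrogenase that can make GABA from putrescine by way of an aldehyde, had no count in the 3 P0 libraries, 2.94, 1.03 and 0.343 CPM at P4, 20.97, 27.5 and 25.7 CPM at P8 and 63.4, 44.1 and 45.3 CPM at P21 (trend, edgeR adjusted p = 0.00331). Another GABA transporter, GAT-2 (*Slc6a13*), had no count at P0, 21.6, 0 and 0.343 CPM at P4, and 14.02, 14.4 and 9.77 CPM at P21. Its change from P0 to P21 was called upward (edgeR adjusted p = 0.0130), and its trend with age was not (adjusted p = 0.276). Ornithine decarboxylase (*Odc1*), which makes putrescine, had a slope of 0.0059 (SE 0.019, adjusted p = 0.860). Pyridoxal kinase (*Pdxk*), which makes the cofactor that the decarboxylases and *Abat* need, had a slope of 0.0015 (SE 0.020, adjusted p = 0.969).

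Of the vesicular glutamate transporters, *Slc17a8* (VGLUT3) measured 37.3, 30.7 and 53.7 CPM at P0, 45.1, 91.0 and 35.6 CPM at P4 and 8.67, 13.5 and 3.26 CPM at P8. It had no count in the 3 P14 libraries and at most 0.212 CPM at P21, a fall with an edgeR adjusted p of 3.38e-05 in the trend. *Slc17a7* (VGLUT1), which also stands in the list of granule neuron markers, rose from 1.19 ± 2.06 to 29.4 ± 12.4 CPM (adjusted p = 0.00509), and the granule marker sum was 320 ± 59.0 CPM at P0 and 444 ± 168 CPM at P21. *Slc17a6* (VGLUT2) was at 20.6 ± 14.2 CPM at P0, 33.3 ± 18.8 CPM at P8 and 0.444 ± 0.596 CPM at P21 (trend, edgeR adjusted p = 0.0719), and its fall from P0 to P21 was called (-5.30 on the log2 scale, adjusted p = 0.00151). Among the citric acid cycle genes of the list, *Ogdh* (slope 0.066), *Suclg1* (0.050) and *Sucla2* (0.047) rose with edgeR adjusted p values of 0.000103, 0.0102 and 0.00925, and *Suclg2* had a slope of -0.11 (adjusted p = 0.298).

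**Figure D5:**
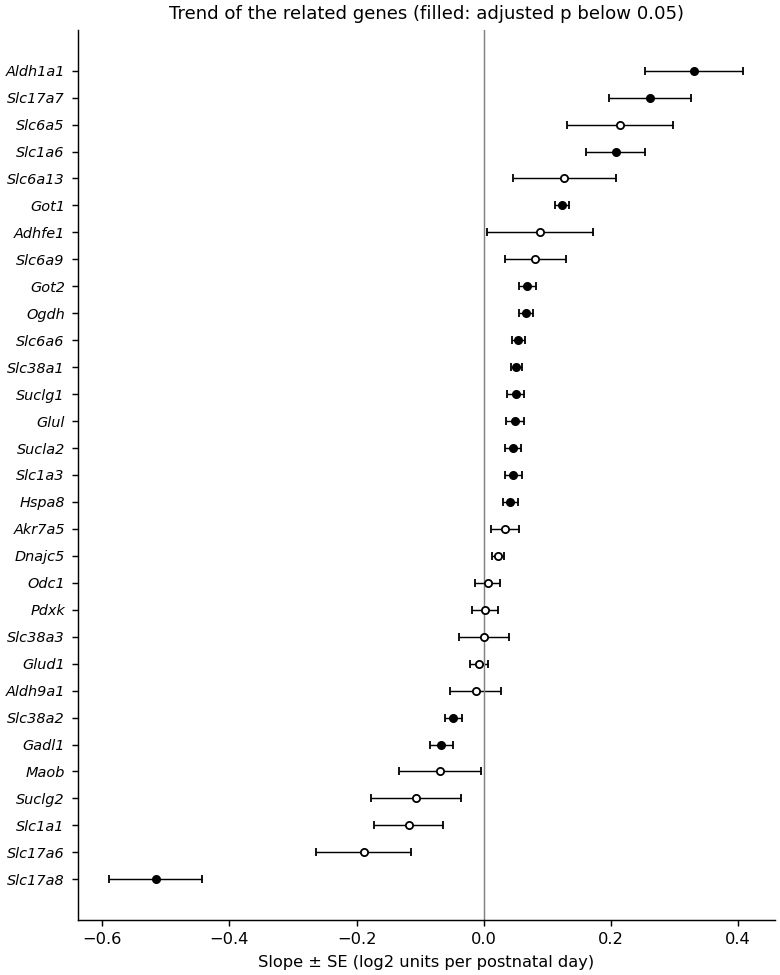
Slope ± SE in log2 units per postnatal day of the 31 related genes that passed the filter, from edgeR's fit over 15 libraries; filled points have an adjusted p below 0.05 and the grey line marks a slope of 0. Of the 16 filled points 13 lie above 0 and 3 (*Slc38a2*, *Gadl1* and *Slc17a8*) below it.

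The genes whose course was most like that of each of the 6 were sought among 9313 protein-coding genes with a mean of at least 10 CPM, by Pearson's r of log2(CPM + 1) over the 15 libraries, which share age, depth and the capture at P0. For *Gad1* these were *Trabd2b* (r = 0.980), *Homer3* (0.978) and *Gprc5b* (0.975), and for *Gad2* *Arhgap26* (0.971), *Bcap31* (0.964) and again *Trabd2b* (0.959). *Slc32a1* was most like *Gde1* (0.982) and *Gria3* (0.979). For *Slc6a11* the nearest were *Scube1* (0.927), *Mmp14* (0.912) and *Nid1* (0.897), of which *Nid1* encodes a basement membrane protein. *Abat* was most like *Atp5a1* (0.967) and *Timm17a* (0.962), both of mitochondria, and the bicarbonate transporter *Slc4a4* (0.958), and *Aldh5a1* was most like *Ssx2ip* (0.911), *Gskip* (0.904) and *Car2* (0.887). Among the 6 genes themselves, r was 0.957 between *Gad1* and *Gad2*, 0.941 between *Gad1* and *Slc32a1*, 0.894 between *Gad1* and *Abat* and 0.607 between *Abat* and *Aldh5a1*, and *Slc6a11* had a negative r with each of the others, between -0.635 and -0.247.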

How the data were processed

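RNA from laser-captured mouse PCs was amplified by the authors with a SMARTer Ultra Low kit, trimmed with FASTX and Cutadapt 1.2.1, aligned to GRCm38/mm10 with GSNAP and counted with HTSeq 0.5.3p9 in intersection-strict mode from uniquely mapping reads. What they deposited are raw counts, 1 whole number for each Ensembl gene in each library; the annotation release and the strand setting are not given in the sources used here. Reads that HTSeq put outside genes, 18.2 to 31.0% of those in the files, were left out. Their share differed with age, being 25.3 to 31.0% in the P0 libraries and 18.7 to 20.7% in the P21 libraries. Names, positions and lengths came from GENCODE M21 (36723 of 38561 IDs matched).

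The members and gene lists were chosen with earlier results of these data known. All 15 libraries entered edgeR 4.0.16 (R 4.3.3; TMM, filterByExpr by time point, quasi-likelihood F test, Benjamini-Hochberg adjustment, threshold 0.05), with postnatal day as a number for the trend and the time point as a factor for steps. The biological coefficient of variation was 0.757 in the trend fit, where changes with age that are not linear in day count as spread. On simulated counts for the 14293 genes, the trend test recovered 121 of 200 changed genes with 3 false calls. The simulation gave all genes the same spread, smaller than that of the trend fit, and placed changes in well-counted genes only. Its figures therefore do not give the recovery or false calls in these data. RPKM is TMM-scaled CPM per kilobase of summed exons. Ratios were set against day with 100000 permutations, two-sided. The genes named are the 6 members, genes of the lists that passed the trend test or exceeded 10 CPM at an age, and the 3 genes most like each member. Some genes chosen by this rule are not reported here; the counts of related genes leave out 2 of these, a change made with the results known. Alternatives were DESeq2 1.42.0, limma-voom (limma 3.58.1), RLE, no filter, a replicate block, the log2 of day, no P0 and each library left out; scaling by totals alone and transcript lengths were added after the data had been seen. Python 3.11.15 with scipy 1.17.1 and pandas 2.3.3 was used for summaries, and matplotlib 3.10.9 for figures.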

Additional observations from a re-analysis of the deposited data

How the results depend on the processing

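With 3 libraries per age and the depth given above, the rises of *Gad1*, *Gad2* and *Slc32a1* with age kept direction and call under all alternatives run. *Slc6a11* did not: its slope was -0.16 with a replicate block (adjusted p = 0.0574), -0.10 with limma-voom (0.194), -0.42 per unit of log2(day + 1) (0.327), and -0.17 to -0.12 with a library left out (0.0153 to 0.1004). The slope of *Abat* was 0.034 without P0 (0.185). That of *Aldh5a1* was 0.088 without P0 (0.0552), 0.057 by library size only (0.0728) and 0.065 to 0.086 with a library left out (0.0152 to 0.0547). The cause was not tested; leaving out P0 or a library also leaves fewer samples.

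DESeq2 called 773, 496, 844 and 175 genes in the 4 steps, where edgeR called 281, 162, 382 and 47 and, with a library left out, 186 to 302, 74 to 201, 163 to 441 and 24 to 68. Single steps that missed the threshold changed sign when a library was left out: *Gad2* from P4 to P8 without P4 replicate 2 (-0.070; range -0.070 to 0.55), *Slc6a11* from P8 to P14 without P8 replicate 3 (0.019; -0.33 to 0.019) and *Aldh5a1* from P14 to P21 without P21 replicate 3 (0.043; -0.36 to 0.043). Without P0, r with age was -0.712 for *Abat* to *Gad1* plus *Gad2* and -0.0778 for *Gad1* plus *Gad2* to the PC markers. For *Slc6a11* to the glial markers it was -0.483 to 0.0562 with a library left out.

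Replicate numbers showed no sign of pairing the samples. The deviations used were taken from the mean of the 3 libraries of an age, which ties the mean correlations below to each other. Deviations of libraries with the same number had a mean correlation of -0.0036 (30 pairs), those with different numbers 0.0018 (60 pairs), and 5 of 15 libraries correlated best with one of their own number. The replicate block called 1723 rising and 1911 falling genes in the trend, beside 1729 and 2021 without it, and among the slopes of the 6 genes it ended the call of *Slc6a11* only; of their steps it ended that of *Abat* from P0 to P4 (0.80, adjusted p = 0.0667).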
